A study of Mus musculus with 8 samples.

Results

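Replication-dependent histone genes encode the bulk of the histones that package newly copied DNA. Their members were taken as all rows of the deposited table whose symbol is Hist, a cluster number from 1 to 4 and h, which gave 64 of 23818 gene symbols. They comprise 6 H1 linker histone genes and 16 H2A, 18 H2B, 11 H3 and 13 H4 core histone genes. Of the 64 genes, 52 lie on chromosome 13 (the Hist1 cluster), 8 on chromosome 3 (Hist2), 3 on chromosome 11 (Hist3) and 1 on chromosome 6 (Hist4h4). The symbol Hist3h2bb-ps belongs to a transcribed pseudogene, and the other 63 have a coding sequence.

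The samples were J1 mouse embryonic stem cells that were either Mettl6 knockout (KO, the clone G6) or wild type (WT). Both genotypes were kept in 2i medium with LIF, which holds stem cells in a naive state, and received cycloheximide, an inhibitor of translation elongation, for 10 min before they were lysed. Each genotype was sequenced as total RNA and as ribosome footprints, the RNA fragments that 80S ribosomes protected from nuclease, with 2 libraries of each kind per genotype and 8 libraries in all. METTL6 is a tRNA methyltransferase that places m3C on serine tRNAs, and the design asks how RNA levels and translation differ without it. The KO is 1 clone, so the loss of Mettl6 and the history of the clone cannot be told apart. In total RNA, the WT library titles have a suffix that the KO titles lack.

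Replication-dependent histone mRNAs are made in S phase and are the only known animal mRNAs that as a rule end in a conserved stem-loop in place of a poly(A) tail. The stem-loop binding protein SLBP takes part in their processing, translation and decay. NPAT, a target of cyclin E-CDK2, switches on their transcription, and the U7 snRNP with LSM10 and LSM11 directs the cut behind the stem-loop. When replication stops, the mRNAs are uridylated and degraded with the help of UPF1, LSM1 and the exonuclease ERI1.

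The stem-loop is a feature of this class of genes that choosing the members by symbol did not use. The pattern GGNNCTTTTNAGNNCC was searched on the transcript strand behind the stop codon of a GENCODE vM21 transcript of each coding member. Among the protein-coding transcripts of a member, one that held the pattern was preferred, and then the shortest. It was found in 41 of 63 members, starting 21 to 58 bases behind the stop codon. In the 100 bases behind the stop codon it was found in 41 members and in 6 of 21614 other protein-coding genes (0.0278%), among them the variant gene H2afx and 3 histone genes with no row in the table (Hist1h2ap, Hist2h2aa1 and Hist2h3c2). The 22 other members have no match in the transcript that was searched. There were 6 distinct cores. One site of each is shown in the RNA sense, with the core in capitals and 5 flanking bases on each side in lower case (GENCODE vM21, GRCm38).
Hist1h1c, core of 23 members, chr13:23739507-23739532, plus strand: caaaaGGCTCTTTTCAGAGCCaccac
Hist1h4d, core of 7 members, chr13:23581945-23581970, plus strand: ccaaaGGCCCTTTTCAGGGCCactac
Hist1h3c, core of 6 members, chr13:23745042-23745067, minus strand: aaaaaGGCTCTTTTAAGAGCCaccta
Hist1h4i, core of 2 members, chr13:22040961-22040986, minus strand: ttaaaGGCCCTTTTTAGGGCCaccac
Hist1h4b, core of 2 members, chr13:23757361-23757386, plus strand: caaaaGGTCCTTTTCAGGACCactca
Hist2h2ac, core of 1 member, chr3:96220413-96220438, minus strand: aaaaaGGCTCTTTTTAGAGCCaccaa
The core of Hist1h4d was found in H4 members alone (7 of the 11 H4 members with a match), and those of Hist1h4i and Hist1h4b likewise. The commonest core occurred in H1, H2A, H2B and H3 members and in no H4 member.

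The start sites differ by class as well. A RefSeq promoter (GRCm38.p6) was matched for 58 members. Motifs were searched on both strands of its whole sequence, which is longer than the 150 bases before the start. All 32851 promoters were searched in the same way. The TATA box (TATAAA) was present in 34 of 58 members and in 13.6% of all promoters. The CCAAT box (CCAAT) was present in 49 of 58 members and in 37.4% of all promoters, but in only 3 of 12 H4 promoters, against 46 of 46 in the other classes together. The octamer ATTTGCAT, the site of POU2F1, was found in 7 of 16 H2A and 6 of 15 H2B promoters, in no H1, H3 or H4 promoter and in 1.74% of all promoters. The letters TTTCGCG, a core of E2F sites, were found in 8 of 16 H2A and 5 of 15 H2B promoters, in no other member and in 0.849% of all. The letters AAACACA, known as the H1 box, were in 5 of 6 H1 promoters, 2 of 16 H2A and 2 of 15 H2B promoters and 7.18% of all promoters. The H2A and H2B genes of a divergent pair start 164 to 281 bases apart, so 1 site can be counted in both classes. None of these motifs contains another, and a match is a description of these windows, not of binding. Promoters of 3 genes that are followed below are shown as single examples from H1, H2B and H4, on the strand of the gene with the motifs in capitals. The example from H4 is one of the 3 H4 promoters with a CCAAT box. The one from H2B has the octamer but no TATA box in the 150 bases shown. In the whole sequence, 8 of 15 H2B promoters hold a TATA box.
Hist1h1b, chr13:21780626-21780775, minus strand, with the H1 box, CCAAT boxes on both strands and a TATA box: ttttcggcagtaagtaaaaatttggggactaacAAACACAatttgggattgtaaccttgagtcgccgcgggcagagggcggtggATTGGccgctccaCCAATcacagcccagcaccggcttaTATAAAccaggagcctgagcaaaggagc
Hist1h2bk, chr13:22035671-22035820, plus strand, with CCAAT boxes on both strands and an octamer: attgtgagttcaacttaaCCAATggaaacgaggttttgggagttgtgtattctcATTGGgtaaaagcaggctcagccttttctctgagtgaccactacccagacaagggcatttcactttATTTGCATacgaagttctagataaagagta
Hist1h4d, chr13:23581418-23581567, plus strand, with a CCAAT box on the reverse strand and a TATA box: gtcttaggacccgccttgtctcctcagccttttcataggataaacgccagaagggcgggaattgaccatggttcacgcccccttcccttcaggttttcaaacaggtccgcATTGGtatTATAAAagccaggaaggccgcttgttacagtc

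Levels are CPM, so each library is scaled by its own total. The estimated depth lay between 1301531 and 2031518 reads for total RNA libraries, and between 1835677 and 2960255 for footprint libraries. The ribosomal RNA precursor Rn45s held 2.49% to 6.46% of total RNA and 38.3% to 46.3% of footprints. Mettl6 stood at 2.30 CPM in KO replicate 1 and was listed at 0 in KO replicate 2, against 25.6 and 27.1 CPM in WT total RNA. Its footprints overlapped, at 5.33 and 4.36 CPM in the libraries labelled KO and 3.38 and 6.59 CPM in those labelled WT (log2 change 0.02, adjusted p = 0.985). Mettl6 therefore checks the labels of the total RNA libraries and not those of the footprint libraries, whose genotypes are taken from their labels throughout. All 12 embryonic stem cell markers were present, with summed levels of 5684 and 6050 CPM in KO and 6649 and 6335 CPM in WT total RNA. Of 8 fibroblast or feeder markers, 4 were at 0 in every library, and the sum was 16.1 and 5.25 CPM in KO and 4.92 and 4.60 CPM in WT total RNA. The 7 primitive endoderm markers summed to 20.7 and 19.7 CPM in KO and 11.8 and 5.62 CPM in WT total RNA, and their part in the results was not tested. The median gene on chromosomes 6, 8 and 11 was lower in KO total RNA, with log2 changes of -0.41, -0.39 and -0.44, and lower in footprints labelled KO, with -0.43, -0.39 and -0.46. In total RNA all other chromosomes lay between -0.10 (chromosome 13) and 0.10 (X).

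In Mettl6 KO cells the histone mRNAs were lower in every class. Summed over all 64 members, total RNA held 9257 and 9047 CPM in the KO libraries, against 15651 and 14696 CPM in the WT libraries. As a share of the library this was 0.926% and 0.905% in KO and 1.57% and 1.47% in WT. Both KO libraries thus lay below both WT libraries, and the KO mean was 1.66-fold lower. In bulk libraries, fewer cells in S phase and less histone mRNA per S-phase cell cannot be told apart. Sums do not depend on how reads of near-identical members were divided among them.

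H4, which pairs with H3 at the centre of the nucleosome, had the largest KO to WT difference among the 5 class sums in total RNA. The H4 sum was 1478 and 1375 CPM in KO, against 2823 and 2644 CPM in WT, 1.92-fold lower in KO. H3 stood at 1643 and 1444 CPM in KO, against 2727 and 2618 CPM in WT (1.73-fold lower). The linker histones H1 stood at 1988 and 2014 CPM in KO, against 3615 and 3278 CPM in WT (1.72-fold lower). H2B held 1914 and 1917 CPM in KO, against 3310 and 3135 CPM in WT (1.68-fold lower). H2A differed least, with 2234 and 2297 CPM in KO, against 3177 and 3019 CPM in WT (1.37-fold lower). The libraries of the genotypes did not overlap in any class.

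**Figure D1:**
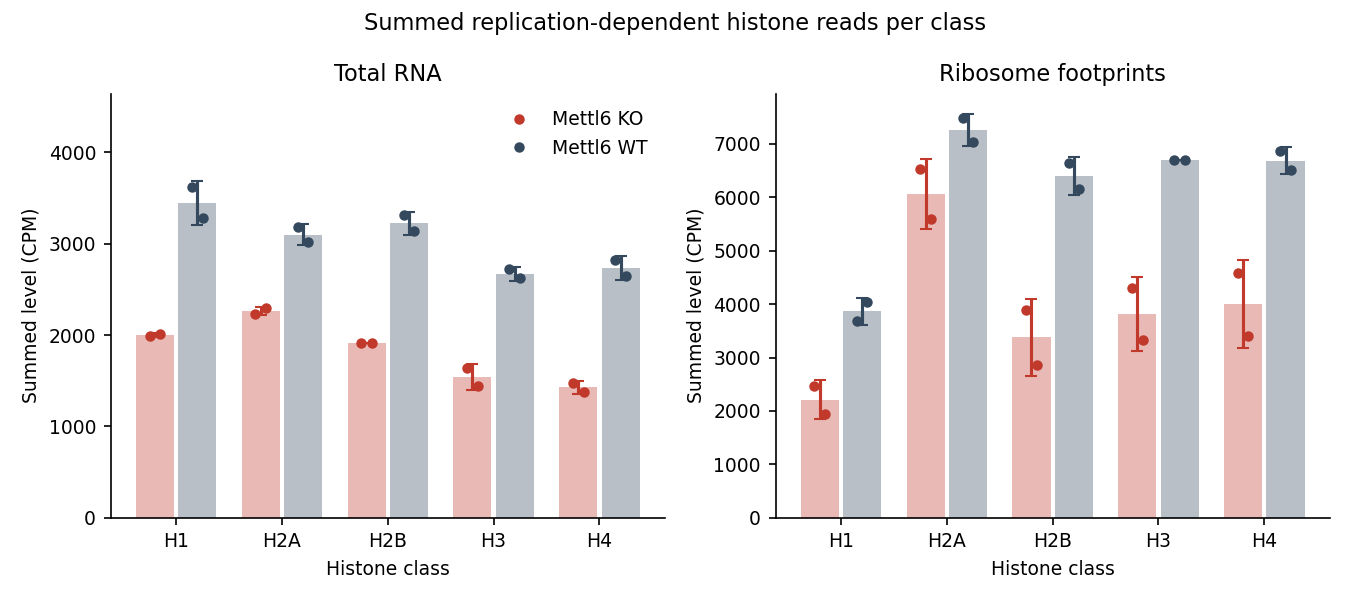
Summed CPM of the members of each histone class in total RNA (left) and ribosome footprints (right), for Mettl6 KO and WT cells. Bars are means of 2 libraries, points are the libraries and error bars the SD; in total RNA each KO point lies below each WT point, and H2A has the smallest gap, 1.37-fold.

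Gene by gene, 39 of 63 tested members were lower in KO total RNA and 0 were higher (limma-trend, Benjamini-Hochberg adjusted p below 0.05 over 13222 genes). Over all genes tested, 7.03% were called lower and 6.57% higher. With no adjustment, 49 members had a p below 0.05 on the lower side and 0 on the higher side. Among all 13222 genes these counts were 1966 and 1723. The median log2 change of the members was -0.72 on the log2(CPM + 1) scale, against -0.04 over all genes. In 56 of 63 members both KO libraries lay below both WT libraries, against 29.8% of all genes tested. The calls took in 5 of 6 H1, 4 of 16 H2A, 10 of 17 H2B, 9 of 11 H3 and 11 of 13 H4 members. Fits of 3 libraries depended on which was left out: without either KO replicate 0 members were called in total RNA, and without WT replicate 1 there were 25. With the spread taken from all 8 libraries, the counts without each library in turn were 24 to 39 and the lowest was again the one without WT replicate 1. Without 1 library the H4 median was -0.86 or lower in each fit, while that of H2A was -0.58 without WT replicate 2 and -0.36 without WT replicate 1, against -0.40 in the fit of 4 libraries. With the median of each chromosome removed, 35 members were called lower and 0 higher, and all genes gave 576 lower and 888 higher calls, against 930 and 869 as deposited.

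Among the linker histones, Hist1h1a to Hist1h1e are the somatic subtypes that bind DNA where it enters and leaves the nucleosome. Hist1h1a held 574.7 and 633.2 CPM in KO total RNA, against 1068 and 1041 CPM in WT (log2 change -0.80, SE 0.110, adjusted p = 0.000127). Hist1h1c held 503.7 and 496.0 CPM in KO, against 863.8 and 836.3 CPM in WT. Hist1h1d, at 428.3 and 453.2 CPM in KO and 712.6 and 559.1 CPM in WT, had the smallest change of the 5 (-0.52, adjusted p = 0.0130). Hist1h1b had the largest fall of the 5, 2.23-fold, with 277.4 and 236.2 CPM in KO and 617.8 and 527.2 CPM in WT. All 5 were called lower, and within the H1 sum Hist1h1b made up 12.8% in KO and 16.6% in WT. The testis-type Hist1h1t was at 0.656 to 5.11 CPM in all total RNA libraries and was not called. H1 members share little sequence (a median of 20% of the 26-base words of their coding sequence), so their counts are the least affected by reads that could belong to several members.

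H2A and H2B form the dimers on the faces of the nucleosome. The most abundant member per kilobase of coding sequence was the H2A gene Hist2h2aa2, at 1639 ± 119 CPM per kb in KO and 2530 ± 148 CPM per kb in WT total RNA (SD, n = 2). It held 611.1 and 677.0 CPM in KO, against 1035 and 953.4 CPM in WT (log2 change -0.63, adjusted p = 0.00119). The next H2A gene in KO, Hist1h2ao, held 332.1 and 332.2 CPM in KO, against 367.4 and 407.5 CPM in WT (-0.22, adjusted p = 0.264). Hist1h2ab held 232.9 and 231.4 CPM in KO, against 274.5 and 286.4 CPM in WT (-0.27, adjusted p = 0.187), and Hist1h2ah 186.9 and 162.6 CPM in KO, against 224.4 and 216.7 CPM in WT (-0.34, adjusted p = 0.131). These 3 did not overlap between the genotypes but missed the threshold. In Hist1h2ai the genotypes overlapped, at 147.0 and 126.4 CPM in KO and 147.3 and 128.9 CPM in WT (-0.02, adjusted p = 0.969). Its sign turned with the scaling (0.02 with median-of-ratios scaling and 0.08 with chromosome medians removed). The H2A genes called lower were Hist2h2aa2, Hist1h2ak, Hist1h2ag and Hist3h2a, and of the 12 on chromosome 13 only Hist1h2ak and Hist1h2ag were called.

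**Figure D2:**
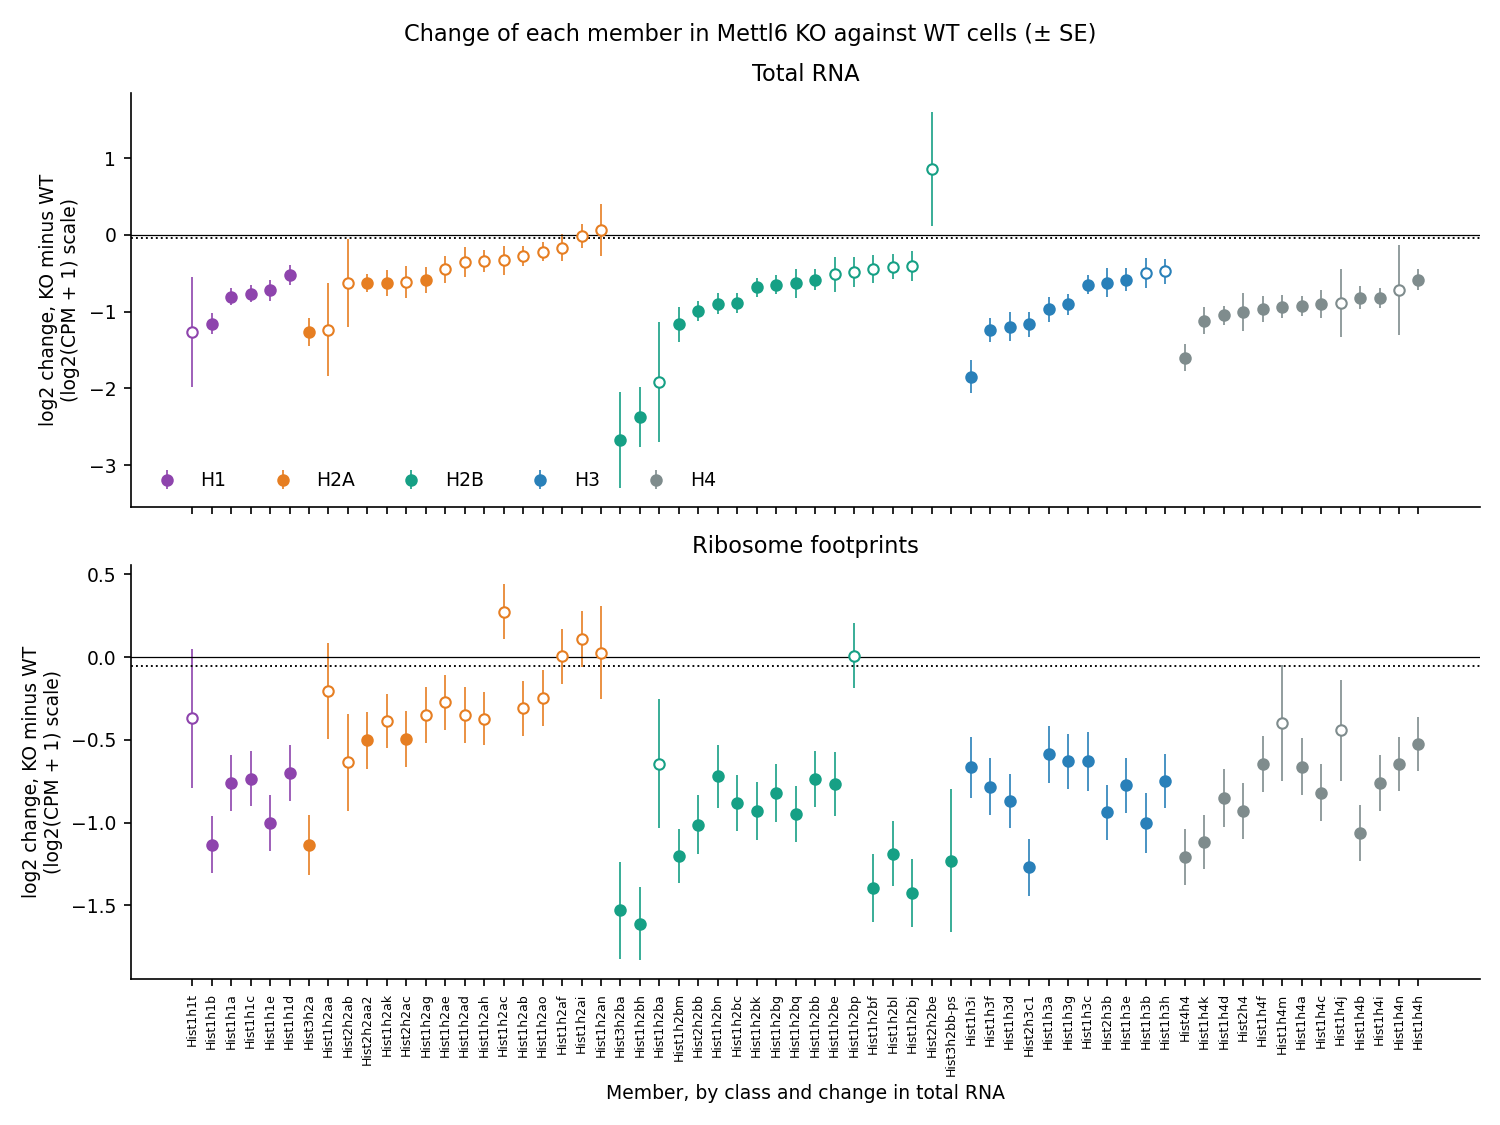
Log2 change of each member in Mettl6 KO against WT cells, with its SE, in total RNA (top) and footprints (bottom), by class and ordered by the change in total RNA. Filled points were called lower, open points were not called, and the dotted line is the median of all genes tested (-0.04 and -0.05); H2A holds 12 of the 24 open points in total RNA and 13 of 18 in footprints.

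The H2B genes were called more often. Hist1h2bn held 257.9 and 269.2 CPM in KO, against 549.5 and 438.6 CPM in WT (-0.90, adjusted p = 0.000302). Hist1h2bk, whose promoter is shown above, held 286.1 and 268.8 CPM in KO, against 454.7 and 434.8 CPM in WT (-0.68, adjusted p = 0.00135). Hist2h2bb held 201.3 and 246.7 CPM in KO, against 446.5 and 441.3 CPM in WT (-0.99, adjusted p = 0.000119). No H2B value of these 3 genes overlapped between the genotypes. Hist1h2bh had the largest fall on the log2(CPM + 1) scale among members on chromosome 13 (-2.37), at 4.63 and 8.19 CPM in KO and 28.9 and 45.3 CPM in WT, 5.78-fold lower (adjusted p = 0.000679). By the ratio of mean CPM the testis-type Hist1h2ba, which was not called, was 5.88-fold lower. Hist2h2be, at 3.07 and 3.28 CPM in KO and 2.46 and 0.531 CPM in WT, was the one tested member with both KO libraries above both WT libraries (26.4% of all genes tested), and it was not called (log2 change 0.86, adjusted p = 0.488). The pseudogene Hist3h2bb-ps did not pass the filter in total RNA and was at 0 in 3 of the 4 libraries.

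H3 and H4 fell almost throughout. Hist1h3c, the highest H3 gene, held 544.4 and 448.5 CPM in KO, against 787.4 and 762.3 CPM in WT (-0.65, adjusted p = 0.00165). Hist1h3i held 27.3 and 35.8 CPM in KO, against 108.4 and 122.3 CPM in WT, 3.66-fold lower (adjusted p = 2.5e-05). Hist1h3h (-0.47, adjusted p = 0.0653) and Hist1h3b (-0.50, adjusted p = 0.0985) were the H3 members that were not called. Hist1h4d held 244.3 and 225.8 CPM in KO, against 519.4 and 456.4 CPM in WT, 2.08-fold lower (log2 change -1.05, SE 0.128, adjusted p = 4.9e-05). Hist1h4a, Hist1h4i and Hist1h4h were also called, at 1.91-fold, 1.76-fold and 1.51-fold lower. The H4 members that missed the threshold were Hist1h4n and Hist1h4j.

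Hist1h4m and Hist1h4n have the same coding sequence, so reads cannot be assigned between them with certainty. Hist1h4n was at 58.2 and 14.1 CPM in KO and 111.6 and 20.7 CPM in WT total RNA, so that 1 library of each genotype was low. Hist1h4m held 136.7 and 146.7 CPM in KO and 247.2 and 297.9 CPM in WT. Their sum was 194.9 and 160.8 CPM in KO, against 358.8 and 318.6 CPM in WT, 1.90-fold lower and close to the H4 class. In footprints Hist1h4m was near the floor (18.8 and 5.20 CPM in KO, 15.2 and 12.2 CPM in WT) and Hist1h4n took nearly all reads. The summed footprints were 479.8 and 459.0 CPM in KO, against 734.4 and 724.7 CPM in WT (1.55-fold lower). Values of either gene alone are uncertain for this reason.

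Of the members on other chromosomes, 5 of 8 on chromosome 3, 2 of 2 tested on chromosome 11 and 1 of 1 on chromosome 6 were called lower in total RNA. Those not called were Hist2h2ac, Hist2h2ab and Hist2h2be, the last with both KO libraries above both WT libraries. Hist4h4 shares 4.53% of its coding words with transcripts of other genes and lies on chromosome 6, where the median gene changed by -0.41. It held 54.6 and 50.5 CPM in KO, against 153.6 and 169.1 CPM in WT total RNA (log2 change -1.60, SE 0.175, adjusted p = 1.5e-05). Hist3h2a on chromosome 11, where the median gene changed by -0.44, held 52.2 and 49.9 CPM in KO, against 114.2 and 134.9 CPM in WT (-1.27, adjusted p = 0.000244). Hist3h2ba, also on chromosome 11, had the largest change of any member on the log2(CPM + 1) scale, with 0.768 and 0.656 CPM (1 read each) in KO and 10.6 and 9.19 CPM in WT (-2.67, adjusted p = 0.00914). On chromosome 3, where the median gene changed by 0.05, Hist2h3c1 held 86.4 and 83.0 CPM in KO, against 175.0 and 208.1 CPM in WT (-1.16, adjusted p = 0.000149). Hist2h3b (-0.62, adjusted p = 0.0346) and Hist2h4 (2.05-fold lower, adjusted p = 0.0124) of the same cluster were also called. The 52 members on chromosome 13 together were 1.64-fold lower in KO, with log2 changes that had a median of -0.70, against -0.10 for the chromosome.

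Of the 63 coding members, 12 share under 50% of their coding words with transcripts of other genes. In total RNA 7 of these 12 were called lower and 0 higher, with a median log2 change of -0.90. In footprints 7 of 11 tested were called lower and 0 higher, with a median of -0.73. The 5 without a call in total RNA were Hist1h1t, Hist1h2aa, Hist1h2ba, Hist2h2ab and Hist2h2be, all under 11 CPM in every total RNA library. Hist1h1t, Hist1h2aa and Hist1h2ba are the testis-type genes of the family, and their summed total RNA was 5.42 and 3.94 CPM in KO, against 20.1 and 15.3 CPM in WT.

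Ribosome footprints of the members were also lower in the libraries labelled KO, which Mettl6 footprints do not tell from those labelled WT. All members together held 21761 and 17143 CPM in KO footprints, against 31359 and 30421 CPM in WT, 1.59-fold lower. The KO libraries differed from each other, replicate 1 lying above replicate 2 in 58 of 64 members. H2B had the largest difference of the classes, at 3891 and 2867 CPM in KO, against 6645 and 6145 CPM in WT (1.89-fold lower). H3 held 4297 and 3322 CPM in KO, against 6689 and 6691 CPM in WT (1.76-fold lower), and H1 2472 and 1951 CPM in KO, against 3689 and 4035 CPM in WT (1.75-fold lower). H4 held 4575 and 3412 CPM in KO, against 6864 and 6509 CPM in WT (1.67-fold lower). H2A again differed least, with 6526 and 5591 CPM in KO, against 7473 and 7041 CPM in WT (1.20-fold lower). No class sum overlapped between the genotypes.

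In footprints 45 of 63 tested members were called lower and 0 higher, against 8.28% lower and 10.7% higher among all 11624 genes tested (limma-trend, adjusted p below 0.05). With no adjustment the members gave 50 on the lower side and 0 on the higher side, and all 11624 genes gave 1783 and 1830. The median log2 change was -0.74, against -0.05 over all genes. Both KO libraries lay below both WT libraries in 54 members, against 30.7% of all genes. The calls were 5 of 6 H1, 3 of 16 H2A, 15 of 17 H2B, 11 of 11 H3 and 11 of 13 H4 members. Without KO replicate 2 the count was 22 members, with H2B 10 of 17 and H2A 1 of 16. With Rn45s left out of the library totals, H2A rose to 8 of 16 calls, and 1462 of all genes were called lower and 1156 higher, against 963 and 1242 as deposited. With chromosome medians removed, 44 members were called lower, and all genes gave 458 lower and 1267 higher calls. The 3 H2A genes called, Hist2h2aa2, Hist2h2ac and Hist3h2a, all lie outside chromosome 13, and 0 of the 12 H2A members on chromosome 13 were called (4 had an unadjusted p below 0.05 on the lower side).

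Hist1h2bk held 795.5 and 629.2 CPM in KO footprints, against 1516 and 1198 CPM in WT (log2 change -0.93, adjusted p = 0.000158). Hist1h2bc held 636.9 and 485.5 CPM in KO, against 996.9 and 1055 CPM in WT (-0.88, adjusted p = 0.000208). Hist1h2bj held 107.8 and 54.5 CPM in KO, against 197.9 and 218.1 CPM in WT (-1.43, adjusted p = 2.1e-06). In all 3 H2B genes the genotypes were apart, and the KO replicates of Hist1h2bj differed from each other by more than the WT ones. Hist2h3c1, with the highest WT footprints of the H3 genes outside chromosome 13, held 587.1 and 424.1 CPM in KO, against 1262 and 1148 CPM in WT (-1.27, adjusted p = 8.1e-07). The H2A gene Hist1h2ac had both KO libraries above both WT libraries (26.9% of all genes tested), at 552.3 and 415.2 CPM in KO and 378.9 and 413.8 CPM in WT, and was not called (0.27, adjusted p = 0.276). Hist1h4j footprints, at 443.6 and 129.6 CPM in KO and 538.8 and 197.6 CPM in WT, varied more between replicates than between genotypes.

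The H2A genes therefore took a larger part of the histone reads in KO cells. This does not depend on the scaling of the libraries, since both terms come from the same library. In total RNA, H2A made up 24.1% and 25.4% of all member reads in KO, against 20.3% and 20.5% in WT. In footprints it made up 30.0% and 32.6% in KO, against 23.8% and 23.1% in WT. The ratio of summed H2A to summed H2B was 1.17 and 1.20 in KO and 0.960 and 0.963 in WT total RNA. In footprints the ratio was 1.68 and 1.95 in KO and 1.12 and 1.15 in WT. With chromosome 13 members alone, the total RNA ratios were 0.887 and 0.915 in KO and 0.685 and 0.691 in WT, and the footprint ratios 1.48 and 1.70 in KO and 0.951 and 0.951 in WT. H3 over H4 was 1.11 and 1.05 in KO and 0.966 and 0.990 in WT total RNA, but 0.939 and 0.974 in KO and 0.975 and 1.03 in WT footprints. With 2 libraries against 2, these are given as values with no test.

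**Figure D3:**
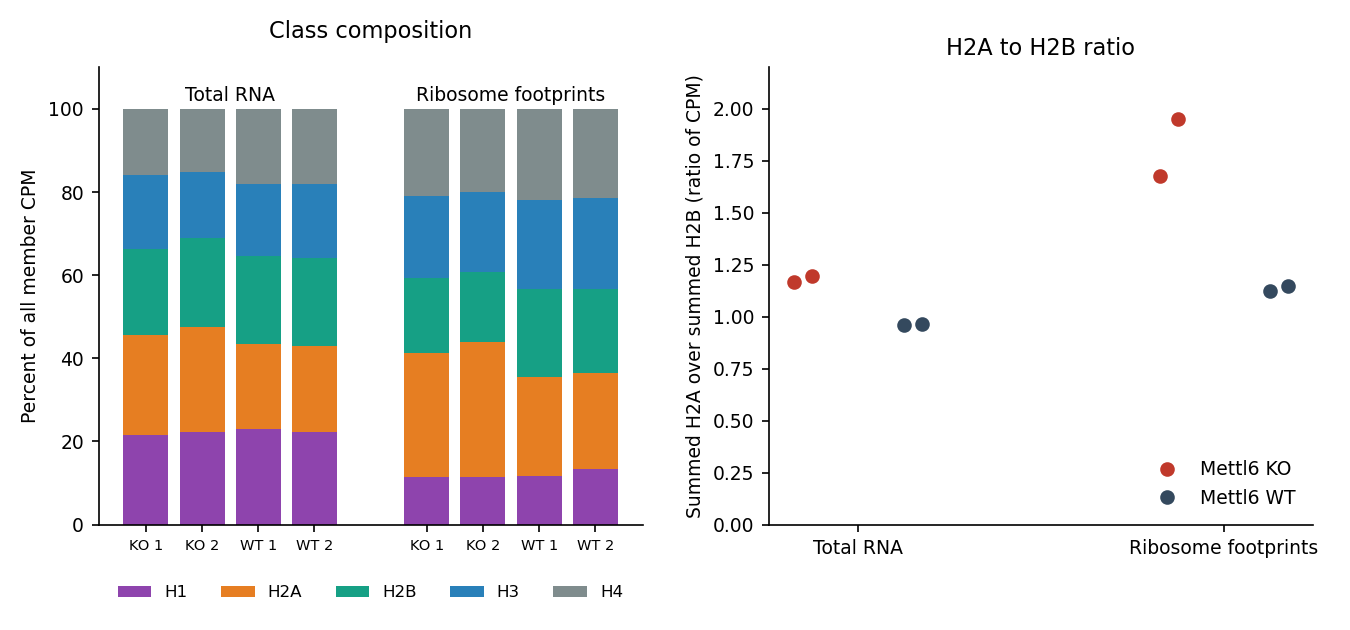
Left, the percent of all member CPM held by each histone class in every library; right, the ratio of summed H2A to summed H2B CPM, 1 point per library. The KO libraries lie above the WT libraries in the ratio in both kinds of library, up to 1.95 in KO footprints against 1.15 in WT.

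Many H2A and H2B genes are divergent neighbours with a shared promoter region, so that the classes can be compared pair by pair. The members hold 12 such pairs, with starts 164 to 281 bases apart (RefSeq, GRCm38.p6), and 11 had values for both genes in each kind of library. Hist1h2bk, shown above, is the partner of Hist1h2ah, with starts 178 bases apart. Hist1h2bk had log2 changes of -0.68 in total RNA and -0.93 in footprints, and Hist1h2ah -0.34 in total RNA and -0.37 in footprints. In total RNA the H2A gene had the higher log2 change in 9 of 11 pairs, with a median difference (H2A minus H2B) of 0.34. The exceptions were Hist1h2ag with Hist1h2bj and Hist2h2ac with Hist2h2be. In footprints the H2A gene had the higher log2 change in 11 of 11 pairs, with a median difference of 0.56 and a range of 0.02 to 1.30. The smallest difference was that of Hist1h2an with Hist1h2bp and the largest that of Hist1h2ai with Hist1h2bl. Pairs share reads with near-identical members of the other pairs and are not independent of each other.

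**Figure D4:**
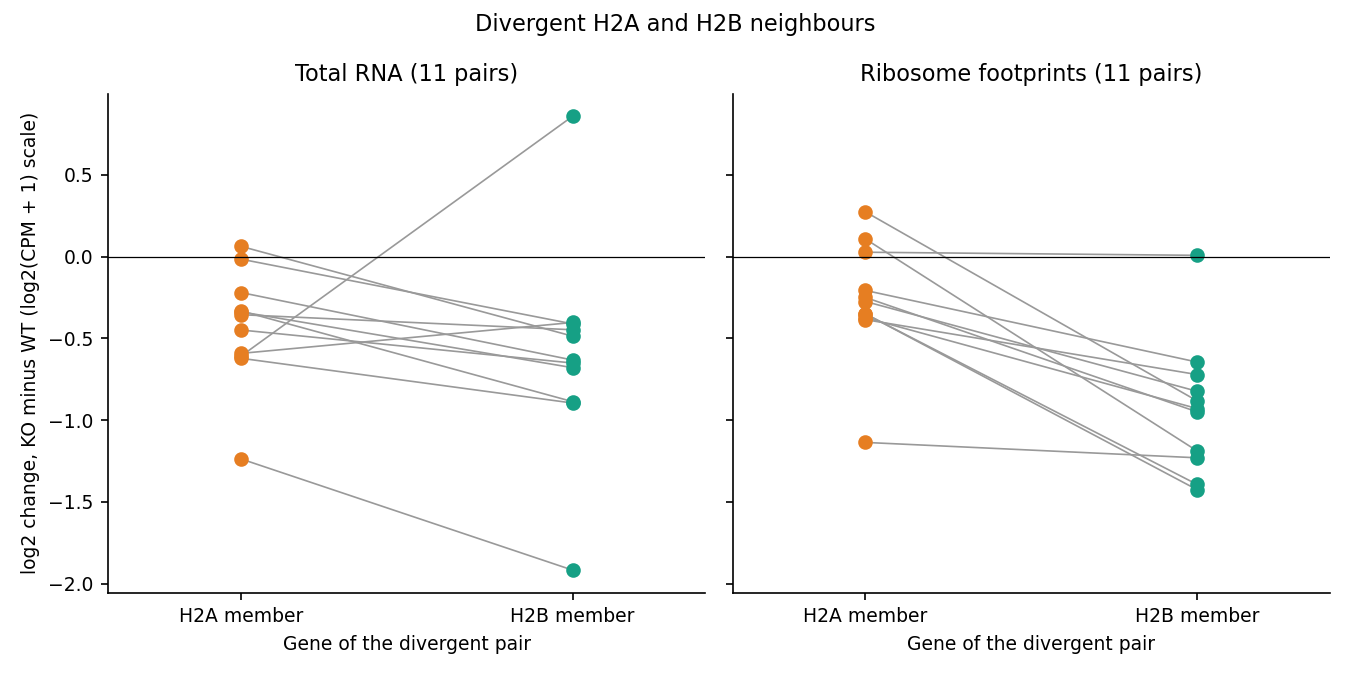
Log2 change (KO minus WT, log2(CPM + 1) scale) of the H2A and the H2B gene of each divergent pair, joined by a line, in total RNA (left) and footprints (right). The H2A gene has the higher log2 change in 9 of 11 pairs in total RNA and in 11 of 11 in footprints.

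The footprint to total RNA ratio of the members was above that of most genes in both genotypes. Whether the total RNA was selected for poly(A) tails, which histone mRNAs lack, is not stated in the sources, and the part of RNA selection in these ratios was not tested. Among the 62 members tested, the ratio of footprint to total RNA CPM was called higher than 1 in 47 and lower in 3 within KO cells (limma-trend, adjusted p below 0.05). Over all genes, 8.66% were called higher and 52.3% lower. Within WT cells 48 members were called higher and 3 lower, against 7.37% and 54.1% of all genes. The median log2 ratio of the members was 1.23 in KO and 1.20 in WT, against -0.79 in KO and -0.87 in WT over all genes. These levels depend on the share of reads that Rn45s took, and with it left out of the totals the all-gene medians were -0.21 in KO and -0.21 in WT. Under that scaling 59 of 63 members were called higher and 2 lower within KO, and 58 higher and 2 lower within WT. Of all 11884 genes then tested, 2349 were called higher and 3802 lower within KO, and 2252 higher and 3566 lower within WT. Coding sequence made up a median of 73.0% of the members' transcripts and 58.9% of those of the 10750 genes with a value, and the part of this in the ratio was not tested. H1 stood lowest of the classes, with a median log2 ratio of 0.18 in KO and 0.16 in WT. H2A had medians of 1.57 in KO and 1.35 in WT, H2B 0.84 in KO and 0.97 in WT, H3 1.21 in KO and 1.30 in WT, and H4 1.34 in KO and 1.33 in WT.

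**Figure D5:**
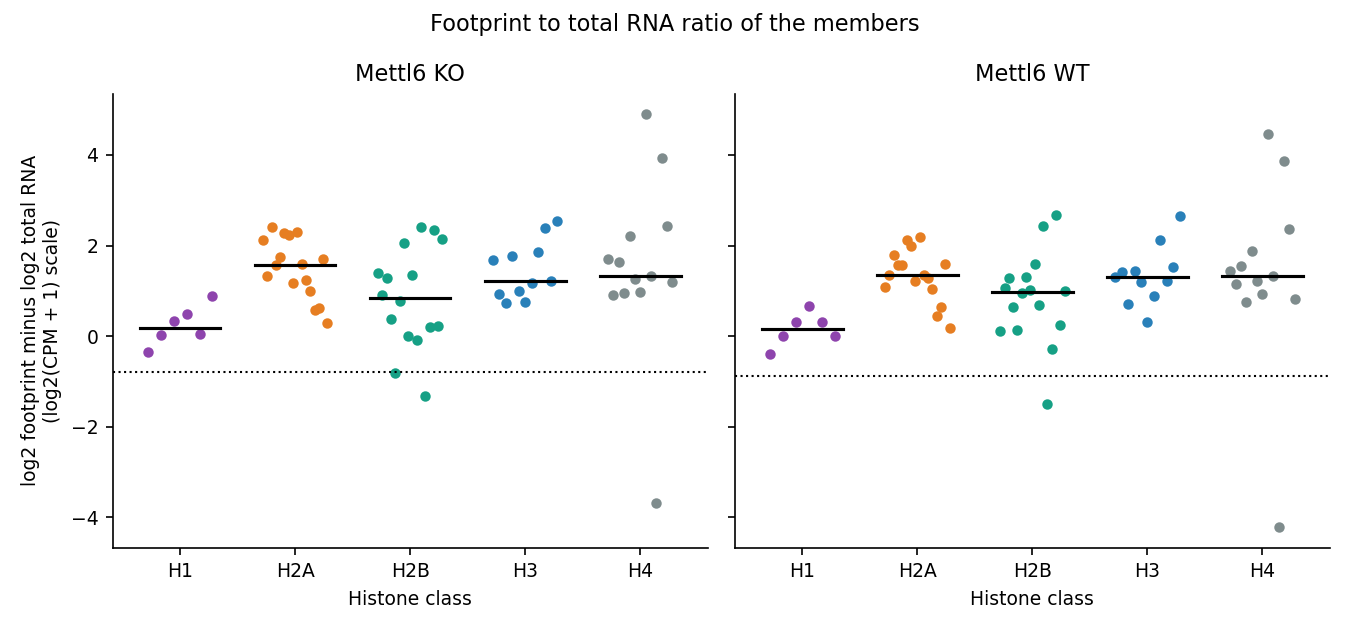
Log2 footprint minus log2 total RNA of each member by class, within Mettl6 KO (left) and WT (right) cells. Bars mark the class medians and the dotted line the median of all genes tested (-0.79 in KO, -0.87 in WT); H1 lies lowest, with medians of 0.18 in KO and 0.16 in WT.

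Single ratios at the extremes belong to members whose reads cannot be placed with certainty. Hist1h4j had log2 ratios of 4.90 in KO and 4.46 in WT, and Hist1h4m had -3.69 in KO and -4.22 in WT. For Hist1h4m and Hist1h4n together, footprints over total RNA were 2.64 in KO and 2.15 in WT. Outside these, Hist1h2bn had the lowest ratio, -1.33 in KO and -1.51 in WT on the log2 scale. It is not among the 12 members that share under 50% of their coding words, so the placing of its reads is uncertain too. Its total RNA was among the highest of the H2B genes while its footprints, at 131.9 and 81.9 CPM in KO and 194.1 and 152.4 CPM in WT, made up 3.12% of H2B footprints in KO and 2.70% in WT.

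The ratio of footprints to RNA was not called different between the genotypes for any member. Translational efficiency, the interaction of genotype and library kind over all 8 libraries, gave 0 calls among 62 members (limma-trend, adjusted p below 0.05), against 0.0176% lower and 0.044% higher among all genes. The median log2 difference was 0.06, against 0.07 over all genes. With no adjustment, 391 of all 11364 genes tested had a p below 0.05 on the lower side and 622 on the higher side. Of the members, 3 were on the lower side and 2 on the higher side. The lower ones were the H2B genes Hist1h2bj (-1.02, SE 0.318, adjusted p = 0.332), Hist1h2bf (-0.95, adjusted p = 0.342) and Hist1h2bl (-0.78, adjusted p = 0.445). The higher ones were Hist1h3i (1.18, SE 0.285, adjusted p = 0.177) and the H2A gene Hist1h2ac (0.61, adjusted p = 0.472). Hist1h2ba had the largest difference of all, 1.27, at levels under 11 CPM (adjusted p = 0.695). The SE of a member's difference was 0.208 to 0.845, and a missing call does not show equal efficiency.

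METTL6 acts on serine tRNAs, and the members differ widely in their serine content. Serine codons made up a median of 11.1% of codons in H2B members, 7.66% in H1, 4.41% in H3, 3.85% in H2A and 1.94% in H4. The median log2 difference in translational efficiency was -0.10 in H2B, 0.03 in H1, 0.02 in H3, 0.12 in H2A and 0.08 in H4. Across the 62 members tested, serine share and translational efficiency had r = -0.142 and Spearman's rho = -0.270. Serine share and the footprint change had r = -0.353 and rho = -0.300. Both are descriptions over members that share class, sequence and libraries, and they carry no test.

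Calls among the genes of histone transcription and processing were few and went both ways. In total RNA 3 of 23 tested genes of histone transcription and 3-prime processing were lower and 2 higher, with a median log2 change of -0.34, against 7.03% lower and 6.57% higher among all genes tested. In footprints 1 was lower and 1 higher, against 8.28% lower and 10.7% higher among all genes tested. Slbp held 63.0 and 76.8 CPM in KO, against 112.2 and 95.0 CPM in WT total RNA, apart between the genotypes but past no threshold (-0.56, adjusted p = 0.0560). Its footprints fell to 57.4 and 49.6 CPM in KO, against 85.8 and 91.8 CPM in WT (-0.72, adjusted p = 0.00475). Npat, the activator of histone transcription, did not differ in a called way in total RNA (149.8 and 141.7 CPM in KO, 161.0 and 145.1 CPM in WT) or in footprints (adjusted p = 0.819 and 0.854). Casp8ap2, a partner of NPAT in histone locus bodies, had log2 changes of -0.34 in total RNA and -0.63 in footprints and was not called. Lsm11 of the U7 snRNP, on chromosome 11, held 10.8 and 13.1 CPM in KO, against 26.1 and 25.0 CPM in WT (-1.04, adjusted p = 0.0522), and Lsm10 was at 2.30 to 8.68 CPM with overlap. Coil, the scaffold of Cajal bodies, also on chromosome 11, fell to 34.6 and 42.6 CPM in KO, against 80.2 and 98.1 CPM in WT (-1.19, adjusted p = 0.00126). Cpsf2, a subunit of the cleavage complex, fell by 0.82 on the log2 scale in total RNA (adjusted p = 0.00616). In footprints Coil (-0.40, adjusted p = 0.234) and Cpsf2 (0.03, adjusted p = 0.945) were not called. Pou2f1, which binds the octamer, rose to 238.9 and 242.8 CPM in KO, against 115.8 and 140.5 CPM in WT (0.91, adjusted p = 0.000633). Hinfp, the other gene called higher in total RNA, had the largest rise of the list (1.25, adjusted p = 0.0186). Its footprints were not called (-0.26, adjusted p = 0.6685).

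Among 11 genes of histone mRNA translation and decay, 2 were lower in total RNA and 4 in footprints, and 0 were higher in either. Over all genes tested, 7.03% were lower in total RNA and 8.28% in footprints, and 6.57% and 10.7% were higher. Eri1, the exonuclease that trims the stem-loop end, held 57.6 and 44.6 CPM in KO, against 114.2 and 118.5 CPM in WT total RNA (-1.18, adjusted p = 0.000593), and its footprints fell as well (-1.31, adjusted p = 0.000578). Ddx19b, an RNA helicase with a role in histone mRNA translation, fell in both (-1.22 and -0.93), and Upf1 (-0.70) and Lsm1 (-1.35) fell in footprints. All 4 lie on chromosome 8, where the median gene changed by -0.39 in both kinds of library. Of the 5 genes of the list on chromosomes other than 6, 8 and 11, 0 were called in either kind of library.

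Of 28 histone chaperone and import genes, 10 were lower and 1 was higher in total RNA (median -0.20). In footprints 2 were lower and 0 higher. The shares over all genes were 7.03% lower and 6.57% higher in total RNA, and 8.28% lower and 10.7% higher in footprints. Asf1b, a chaperone of H3 and H4 in replicating cells, was 2.99-fold lower in KO (-1.55, adjusted p = 0.00119, chromosome 8). Npm1, a chaperone of H2A and H2B in the nucleolus (chromosome 11), fell by 0.80 on the log2 scale, and Ssrp1, a subunit of the FACT complex, by 0.64. Atrx, which works with DAXX to place H3.3, rose (0.68, adjusted p = 0.000616). These changes are those in total RNA. In footprints Npm1 (-0.40), Ssrp1 (-0.33) and Atrx (0.43) were not called, while Asf1b was called lower (-0.85). On chromosomes other than 6, 8 and 11 the count was 8 of 25 lower in total RNA.

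The replication-independent variants give a comparison within the histone family. Of 11 tested, 2 were lower in total RNA and 4 in footprints, with 0 higher and medians of -0.11 and -0.31. All genes tested gave 7.03% lower in total RNA and 8.28% in footprints, with 6.57% and 10.7% higher. H3f3b, which encodes H3.3 (chromosome 11), fell in total RNA (-0.57, adjusted p = 0.00540) and footprints (-0.95). H2afy, which encodes macroH2A1, on chromosome 13, fell in total RNA (-0.96) and footprints (-0.81). H2afz (H2A.Z) fell in footprints (-0.76, adjusted p = 0.000752) and H1fx (H1.10, chromosome 6) likewise (-1.02). In total RNA neither was called, with -0.34 for H2afz (adjusted p = 0.0632) and 0.73 for H1fx (adjusted p = 0.4542). H2afx, singled out after its values were seen because its transcript carries the stem-loop pattern, held 267.8 and 258.3 CPM in KO, against 254.1 and 234.3 CPM in WT total RNA. The KO libraries lay above the WT ones by a log2 change of 0.11 (adjusted p = 0.652), and its footprints had -0.32 (adjusted p = 0.178).

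Genes of DNA replication and S phase had a smaller median change than the members. In total RNA 13 of 49 were called lower and 0 higher (median log2 change -0.41), and in footprints 10 lower and 1 higher (-0.34). The shares over all genes were 7.03% lower and 6.57% higher in total RNA, and 8.28% lower and 10.7% higher in footprints. Pcna, the sliding clamp of DNA polymerases, held 250.5 and 247.4 CPM in KO, against 353.4 and 353.5 CPM in WT total RNA (-0.50, adjusted p = 0.0131). Mcm2, a subunit of the replicative helicase (chromosome 6), fell by 0.92 on the log2 scale, and on chromosome 11 Cdc6 fell by 0.77, Rpa1 by 0.96 and Pold2 by 1.06. Of the 12 genes on chromosomes 6, 8 and 11, 7 were lower in total RNA, and of the 37 on other chromosomes 6 were lower, with medians of -0.78 and -0.31. Leaving out the members on chromosomes 6 and 11, 36 of 60 histone genes were called lower in total RNA (median -0.66) and 41 of 59 in footprints (-0.72).

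Of 18 G1/S regulators, 2 were lower in total RNA and 1 in footprints, with 0 higher. All genes tested gave 7.03% lower and 6.57% higher in total RNA, and 8.28% lower and 10.7% higher in footprints. Ccne1, a cyclin that activates CDK2, held 119.9 and 114.8 CPM in KO, against 178.2 and 143.0 CPM in WT total RNA (-0.44, adjusted p = 0.0817). Ccne2 (-1.18, adjusted p = 0.0271) and Ccnd1 (-0.83, adjusted p = 0.0149) were called lower in total RNA. In footprints Ccne2 (-0.21, adjusted p = 0.833) and Ccnd1 (-0.19, adjusted p = 0.570) were not called. Cdkn1b, an inhibitor of CDK2 (chromosome 6), was lower in footprints (-0.70, adjusted p = 0.0123). Of 25 mitosis genes, 6 were lower and 1 higher in total RNA, and 4 lower and 2 higher in footprints. The 4 lower in footprints all lie on chromosomes 6, 8 and 11. The 21 mitosis genes on other chromosomes gave 0 lower and 2 higher in footprints (median 0.03), and 4 lower and 1 higher in total RNA (median -0.27). Top2a (-0.96, chromosome 11) and Mad2l1 (-1.01, chromosome 6) fell and the proliferation marker Mki67 rose (0.63, adjusted p = 0.000739). Of 12 stem cell markers, Nanog (-0.77, chromosome 6) and Zfp42 (-0.58, chromosome 8) were lower in total RNA and 0 were higher. In footprints Nanog (-0.80) and Zfp42 (-0.55) were lower and Tfcp2l1 was higher (0.57, adjusted p = 0.0118). Of the 9 markers on chromosomes other than 6, 8 and 11, 0 were lower in either kind of library.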

How the data were processed

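The submitters' processing notes name CASAVA 1.8.2, Bowtie2, RSEM and the build mm10. Versions of Bowtie2 and RSEM, their settings, the use of strand and any RNA selection were not stated in the sources. The authors deposited CPM, which RSEM derives by sharing reads among similar transcripts, for 8 libraries. Depth was estimated by taking the most frequent low value in each library as 1 read. At most 90.5% of values were whole reads within 0.01, so no count test was run.

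Groups were read from library titles. Genes averaging 1 CPM or more entered the tests, on log2(CPM + 1) values with limma-trend (limma 3.58.1, R 4.3.3), Benjamini-Hochberg adjusted p below 0.05: KO against WT in each kind of library (4 libraries each), and the genotype by kind interaction and footprint to RNA ratios in a fit of 8. The p-values rest on 2 libraries per group, labelled as biological replicates, and on spread shared across genes. Folds are ratios of mean CPM. The fit was tested on simulated data. Python 3.11.15 with pandas 2.3.3 was used otherwise.

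The members, gene lists and tests were chosen with earlier results of these data known. Named members are the 5 highest of each class in total RNA and the 3 highest in footprints, those outside chromosome 13, and the extremes; others named were chosen after their values were seen. Named list genes are up to 4 called genes per list with the smallest p, plus Slbp, Npat, Lsm10, Lsm11, Eri1, Casp8ap2, Pcna, Ccne1 and Mettl6. Hinfp was added after its values were seen. Sequence sharing is the percent of 26-base words also found in transcripts of other genes in GENCODE vM21. Alternatives changed the pseudocount, filter, scaling, spread, block and libraries. Outside the alternative with a block, replicate numbers were not used to pair the samples.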

Additional observations from a re-analysis of the deposited data

How the results depend on the processing

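Called members in total RNA, 39 lower as reported, were 33 to 43 under the other filters, pseudocounts, scalings and spreads. They were 40 with the replicate block, and 0 to 26 in fits without 1 library: 0 without KO replicate 1, 0 without KO replicate 2 and 25 without WT replicate 1. In those fits without a KO library at most 1 gene of all those tested was called, on 1 residual degree of freedom. With the spread of all 8 libraries they ranged from 24 (without WT replicate 1) to 39, where the lone library is assumed to vary like the others. In footprints, 45 as reported, counts were 42 to 50, 42 with the replicate block, 22 to 44 without 1 library (22 without KO replicate 2), and 21 to 42 with the spread of all 8 libraries (21 without KO replicate 2). No alternative called a member higher in either kind of library. The same-number deviations correlated at -0.016 in total RNA and -0.043 in footprints, so no deviation shared by libraries of the same number was seen. These values do not tell how the samples were collected. For translational efficiency, 1 member was called lower without KO replicate 1 and 0 otherwise, the replicate block included. Members with a ratio called lower within KO were 2 to 5 without 1 library (5 without KO replicate 1) and 3 with the replicate block. The KO to WT ratio of summed H2A in total RNA was 0.799 with chromosome 13 members alone, against 0.731.

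Signs turned for some members. In total RNA Hist1h2ai was at 0.0165 with median-of-ratios scaling, 0.0843 with chromosome medians removed, 0.0036 with quantile normalization and -0.124 to 0.0931 without 1 library (0.0802 without WT replicate 1 with the spread of all 8 libraries). Without 1 library Hist1h4n lay between -1.91 and 0.47 (0.26 without KO replicate 2) and Hist2h2ab between -1.44 and 0.18. In footprints without 1 library Hist1h2ai lay between -0.10 and 0.31, Hist1h4j between -1.33 and 0.44 (0.28 without WT replicate 1), and Hist1h4m between -1.24 and 0.44. The log2 ratio within KO turned to 0.34 for Hist1h1a and 0.67 for Hist1h2bj with Rn45s left out of the library total, and that of Hist1h2bj was 0.0016 with median-of-ratios scaling. Without 1 library it lay between -0.0696 and 0.13 for Hist1h1b, -0.15 and 0.22 for Hist1h1e, -0.67 and 0.65 for Hist1h2bj, -0.11 and 1.36 for Hist2h2ab, and -0.24 and 0.71 for Hist2h2bb. Within WT it turned to 0.38 for Hist1h1a with Rn45s left out, and lay between -0.27 and 0.29 for Hist1h1b and between -0.38 and 0.62 for Hist1h2ba without 1 library. The causes were not tested. Depth limits members under about 10 CPM, where 1 read is 0.338 to 0.768 CPM.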
